A study of Mus musculus with 2 samples.

Results

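Bone morphogenetic protein (BMP) signalling was examined through 10 genes in ES-D3 mouse embryonic stem cells, an established pluripotent line of strain 129S2/SvPas. The genes were chosen by symbol, with earlier results of these data known, and comprise the ligands Bmp2, Bmp4 and Bmp7, the ID factors Id1, Id2, Id3 and Id4, and the feedback inhibitors Smad6, Smad7 and Bambi. All 10 of the 10 were among the 23370 genes with a probe set of their own, each with 1 probe set, and all 10 were among the 19180 genes that passed a filter on low signal. Cells grown for 3 days in a microfluidic microchamber with minimal perfusion (1 array) were set against cells grown for 3 days on a 6-well plate (1 array). The seeding density was 20000 cells/cm2 for each, and the medium of each contained 1000 U of LIF (leukaemia inhibitory factor) and serum at 15%. With 1 array for each culture the conditions cannot be tested against each other, and the values describe these 2 arrays. A lower share of cells with a transcript and less of it per cell cannot be told apart in such bulk RNA.

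BMPs are secreted dimers that bring type I and type II serine/threonine kinase receptors together, and the receptors phosphorylate SMAD1, SMAD5 and SMAD9, which enter the nucleus with SMAD4. Genes of the ID family are classical direct targets. Their proteins have a helix-loop-helix domain but no DNA-binding basic region, so they tie up E proteins and block differentiation factors of the basic helix-loop-helix (bHLH) class. In mouse embryonic stem cells, BMP4 or serum acts together with LIF to maintain self-renewal, and induction of Id genes is a known part of that action. SMAD6, SMAD7 and BAMBI are induced by the pathway and dampen it.

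Values are log2 RMA values (a background-corrected, between-array normalized array signal), and differences are microchamber minus plate, so 1 unit is 2-fold. Over the 19180 genes, 0.344% (66 genes) exceeded the plate value by 2-fold or more in the microchamber, 0.443% (85 genes) fell short of it by as much, 46.9% lay above 0 and 52.3% below. At 1.5-fold the shares were 2.46% higher and 2.76% lower. The middle 95% of their differences lay between -0.61 and 0.58. Of the 10 BMP and ID genes, 2 were at least 2-fold higher, Id4 and Bmp4, and none was lower by that much. At 1.5-fold, Id3 joined them and Bmp7 was lower, which makes 3 higher and 1 lower. These genes were chosen with such differences known, so the counts are a description. Their median difference was 0.04, beside -0.01 for all genes past the filter, with 5 above 0, 4 below 0 and 1 at 0. No common direction therefore ran through the 10. A set of 800 genes with 2 probe sets past the filter gave a within-gene standard deviation of 0.21 for the difference of a single probe set, which measures spread within this pair of arrays and not between cultures. By that measure the differences of Bmp2 and Bambi lay within 1 standard deviation, those of Id2, Smad6 and Smad7 between 1 and 2, and the other 5 beyond 2. Many genes lay as far out. Of the 19180 genes, 1074 others differed by at least as much as Id1, the smallest of those 5. For Smad7, the largest of those between 1 and 2, the number was 3042. The measure is also pooled over signal levels.

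**Figure D1:**
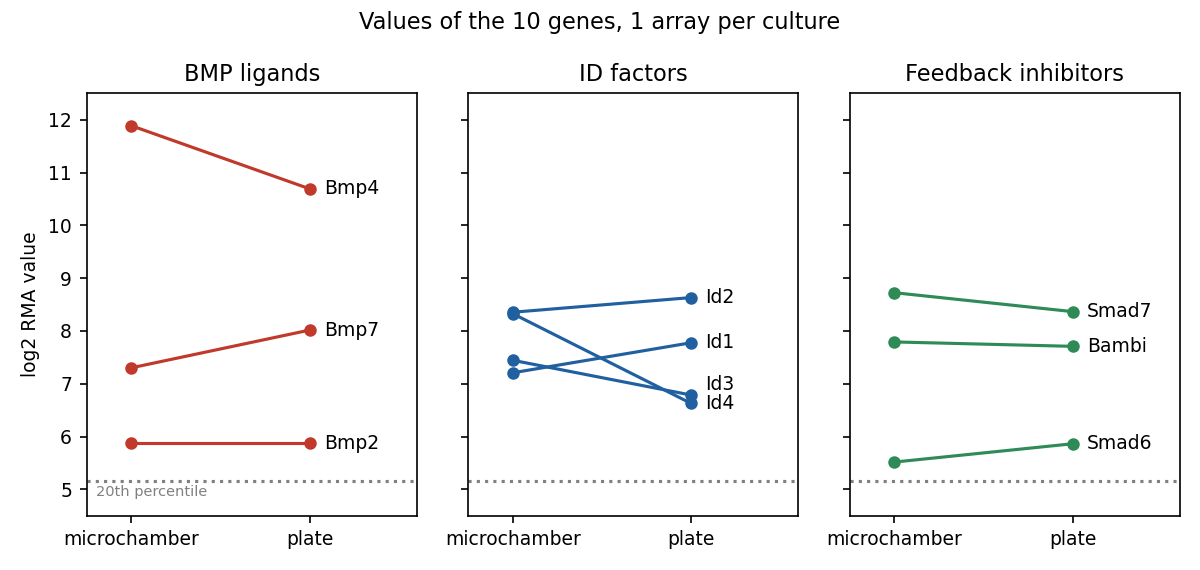
Log2 RMA values of the 10 genes on the microchamber array (left of each panel) and the plate array (right), 1 array per culture, with lines joining the values of a gene and a dotted line at the plate array's limit for low signal (5.16). Lines for Bmp4, Id3, Id4 and Smad7 go down to the plate, those for Bmp7, Id1, Id2 and Smad6 go up, and those for Bmp2 and Bambi are flat or nearly so; levels of different genes are not comparable, since probe sets bind differently.

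The ligands differed from each other. Bmp4 (chr14:46383525-46390669, GRCm38), the BMP ligand most used to support self-renewal of mouse embryonic stem cells, had a log2 value of 11.89 in the microchamber and 10.69 on the plate. The difference of 1.20 is 2.29-fold, and 32 genes past the filter ranked above it. When the genes were put in 4 equal groups by mean level, it lay in the highest group, where 28 of the other genes (0.584%) differed by at least as much in either direction. Bmp7 (chr2:172868012-172940321), a ligand of the BMP5 to BMP8 branch known for its roles in kidney, eye and skeleton, was 7.30 in the microchamber and 8.02 on the plate. Its difference of -0.72 is 1.64-fold and goes the opposite way to that of Bmp4. In its level group, the second from the top, 237 others (4.94%) were at least as far apart. The differences of Bmp4 and Bmp7 were 1.91 log2 units apart.

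Bmp2 (chr2:133552159-133562896), the close relative of Bmp4 needed for heart and amnion development, was 5.88 in the microchamber and 5.88 on the plate, a difference of 0. Identical deposited values are uncommon but not unique to it, and 453 of the 33793 probe sets (1.34%) had them. Bmp2 lay above the filter but below the array median, taken over probe sets with a symbol, of 6.10 for the microchamber and 6.13 for the plate. Differences were narrower at such levels, with a standard deviation of 0.24 in its level group and 0.36 in that of Bmp7. Its value therefore does not show that Bmp2 transcript was equal in the cultures.

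The 4 ID factors split evenly by direction. Id4 (chr13:48261116-48266028), an ID factor best known in neural progenitors and spermatogonial stem cells, had 8.33 in the microchamber and 6.63 on the plate. Its difference of 1.70, a 3.25-fold higher value, had rank 10 from the highest among the 19180 genes. In its level group 9 other genes (0.188%) were as far apart in either direction. Id3 (chr4:136143822-136145392), a widely used readout of BMP signalling, was 7.44 in the microchamber and 6.79 on the plate. It was therefore 1.58-fold higher, by 0.66, with 322 other genes of its level group (6.72%) at least as far apart.

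Id1 and Id2 were lower in the microchamber. Id1 (chr2:152736251-152737410), the family member most often used as a SMAD1 target gene, was 7.21 in the microchamber and 7.78 on the plate. The difference of -0.57 is 1.48-fold, and 480 others of its level group of 4795 genes were at least as far apart. Id2 (chr12:25093799-25096092), which acts in lymphoid and neural lineages and in trophectoderm, was 8.35 in the microchamber and 8.63 on the plate. Its difference was -0.28, which 1645 others of its level group (34.3%) reached or exceeded. Id1 and Id2 thus lay inside the middle 95% of all genes, and Id3 and Id4 lay outside it on the higher side.

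Id4 stood apart from the mean of the other 3 ID factors, which was -0.06. The difference between them was 1.76 log2 units, or 3.40-fold. Against each member in turn, Id4 was further up by 2.27 over Id1, 1.98 over Id2 and 1.04 over Id3. The other members also differed among themselves, and Id3 was 1.23 above Id1 and 0.94 above Id2, while Id2 was 0.29 above Id1. The family was therefore not Id4 against a uniform group of 3, since Id3 lay between Id4 and the pair of Id1 and Id2.

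**Figure D2:**
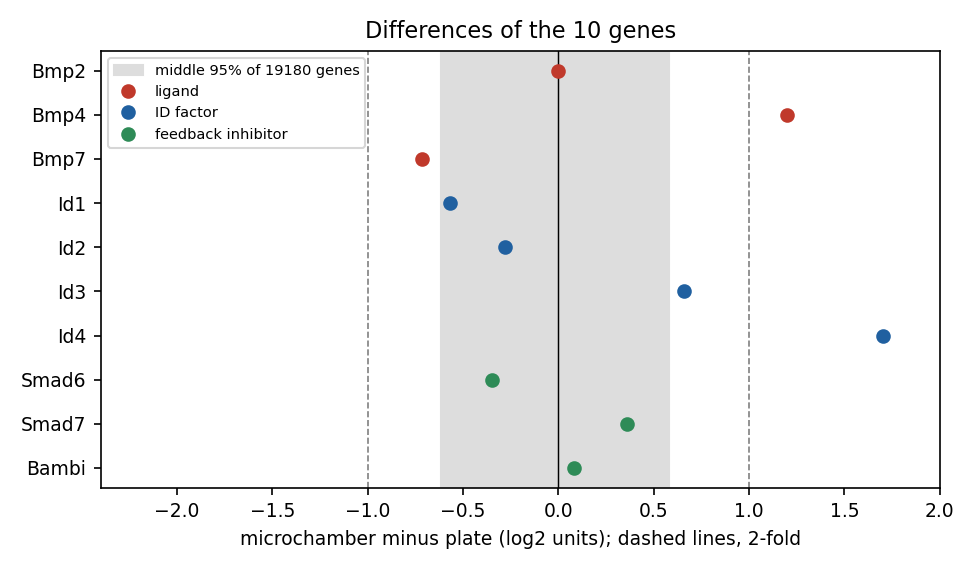
Microchamber minus plate difference (log2 units) of each of the 10 genes, coloured by role, with the middle 95% of the 19180 genes past the filter in grey and dashed lines at 2-fold. Id4 (1.70) and Bmp4 (1.20) lie beyond the 2-fold line on the higher side, Id3 (0.66) and Bmp7 (-0.72) lie just outside the grey band on opposite sides, and the other 6 lie inside it.

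Promoter sequence is shown for the ID factors that differed in opposite directions and for Smad6, because SMAD proteins bind short defined motifs and a reader can see here which of these genes carry one near the start site. RefSeq promoter windows (GRCm38.p6) of 250 bases before to 50 after the start matched 5 of the 10 genes, which were Bmp4, Id2, Id3, Id4 and Smad6. The GC-rich motif GGCGCC bound by SMAD1 and SMAD5 and the palindromic SMAD-binding element GTCTAGAC were searched on both strands, and matches are in capitals; neither overlaps the other here. The half-site GTCT, which the palindrome contains, was also searched on both strands and is not in capitals. The windows run 5′ to 3′ along the gene and lie at chr13:48260866-48261165 on the plus strand for Id4, chr4:136143572-136143871 on the plus strand for Id3, chr12:25096043-25096342 on the minus strand for Id2 and chr9:64022010-64022309 on the minus strand for Smad6.
Id4: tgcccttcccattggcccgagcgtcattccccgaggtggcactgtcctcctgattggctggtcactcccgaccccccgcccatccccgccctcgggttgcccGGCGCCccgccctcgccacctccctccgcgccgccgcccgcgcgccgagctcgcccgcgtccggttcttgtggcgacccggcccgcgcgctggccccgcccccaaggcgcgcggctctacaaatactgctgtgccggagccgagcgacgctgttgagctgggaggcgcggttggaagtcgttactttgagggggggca
Id3: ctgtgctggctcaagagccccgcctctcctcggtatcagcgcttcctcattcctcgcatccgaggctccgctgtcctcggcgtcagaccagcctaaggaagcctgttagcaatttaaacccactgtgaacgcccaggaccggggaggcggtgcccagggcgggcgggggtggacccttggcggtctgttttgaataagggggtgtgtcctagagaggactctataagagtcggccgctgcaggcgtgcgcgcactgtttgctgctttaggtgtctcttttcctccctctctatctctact
Id2: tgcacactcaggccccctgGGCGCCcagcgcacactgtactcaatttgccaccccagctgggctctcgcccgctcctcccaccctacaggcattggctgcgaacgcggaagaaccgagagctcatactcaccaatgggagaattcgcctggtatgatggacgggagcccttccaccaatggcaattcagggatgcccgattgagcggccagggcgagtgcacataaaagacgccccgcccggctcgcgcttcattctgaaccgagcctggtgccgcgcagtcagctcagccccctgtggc
Smad6: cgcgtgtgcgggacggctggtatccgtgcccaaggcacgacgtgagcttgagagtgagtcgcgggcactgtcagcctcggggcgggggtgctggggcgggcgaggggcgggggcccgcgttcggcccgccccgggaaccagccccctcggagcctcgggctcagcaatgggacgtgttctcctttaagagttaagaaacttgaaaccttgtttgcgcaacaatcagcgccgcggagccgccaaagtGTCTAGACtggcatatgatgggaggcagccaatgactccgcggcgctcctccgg

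Both Id4, higher in the microchamber by 1.70, and Id2, lower at -0.28, had 1 GGCGCC match. The match began 148 bases before the start in Id4 and 231 bases before it in Id2. Id3, higher by 0.66, and Bmp4, higher by 1.20, had neither of these longer motifs in the windows, which says nothing of sequence elsewhere in the genes. GGCGCC was present in 11.9% of the 32851 promoter windows of the same length. Smad6, lower at -0.35, carried 1 GTCTAGAC match, a motif present in 0.213% of all windows. It began 4 bases before the start that the window uses. That start and the match lie inside the gene span used here for Smad6, which ends at 64022085. The half-site GTCT matched 3 times in Id3, 2 times in Bmp4, 2 times in Smad6 (both within the palindrome), 1 time in Id2 and 0 times in Id4, and 88.0% of all windows held it. Too few windows carried one of the longer motifs to relate a motif to the direction of difference, which was not tested. The Id4 window was 73.3% G and C, beside 60.0% for Id3, 63.3% for Id2, 66.3% for Smad6, 64.0% for Bmp4 and a median of 52.7% over all windows.

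The feedback inhibitors differed little and not in one direction. Smad7 (chr18:75367365-75395935), which blocks both BMP and TGF-beta receptors, was 8.73 in the microchamber and 8.37 on the plate, a difference of 0.36 or 1.28-fold. Smad6 (chr9:63953076-64022085), which preferentially blocks BMP signalling, was 5.52 in the microchamber and 5.86 on the plate, a difference of -0.35 or 1.27-fold. Like Bmp2, it lay below the median of each array. The differences of Smad7 and Smad6 were 0.71 log2 units apart.

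Bambi (chr18:3507011-3516404), a transmembrane pseudoreceptor without a kinase domain, was 7.79 in the microchamber and 7.71 on the plate. The difference of 0.08 was reached or exceeded by 3755 other genes of its level group (78.3%). Its pseudogene Bambi-ps1 has a probe set of its own, at 6.49 in the microchamber and 6.51 on the plate. How far the probes of Bambi and the pseudogene share signal was not tested. All 3 inhibitors lay inside the middle 95% of differences, as most genes do by its definition. None of the 3 was 2-fold apart. Of all genes past the filter, 0.344% were 2-fold higher and 0.443% 2-fold lower, so none of 3 is near those shares.

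**Figure D3:**
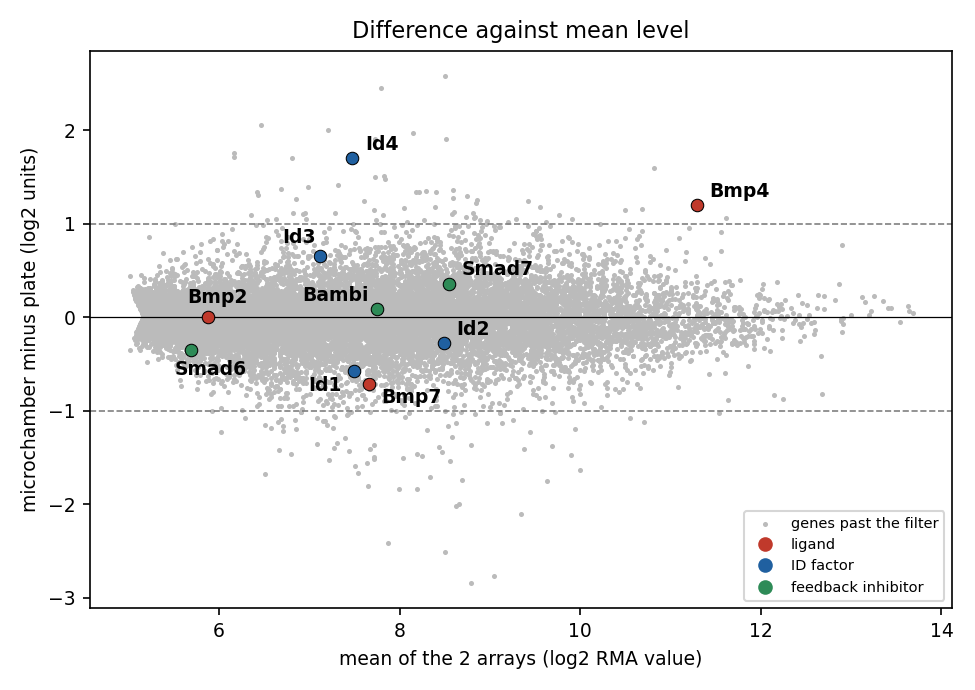
Microchamber minus plate difference (log2 units) against the mean of the 2 arrays (log2 RMA value) for the 19180 genes past the filter (grey), with the 10 BMP and ID genes coloured by role and dashed lines at 2-fold. Id4 and Bmp4 stand above most genes of like mean level. Id3 lies above 0 and Bmp7 and Id1 below 0, each inside the grey cloud with other genes further out. Bmp2 and Smad6 sit at the low-signal end where the cloud is narrower.

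The remaining machinery was followed through 7 lists, which were chosen with earlier results known and which partly overlap. None of the 15 other BMP and GDF ligands past the filter was 2-fold apart, and 8 lay above 0 with a list median of 0.06, which was -0.18 with a filter at the array median. Their highest differences were those of Gdf3, a ligand of pluripotent cells, at 0.30, Gdf11, an axial patterning factor, at 0.26 and Bmp8a at 0.21. The lowest were Bmp8b, which acts in germ cell specification, at -0.48, Bmp6 at -0.30 and the oocyte factor Bmp15 at -0.16. Just 4 of these 15 ligands reached the median of either array. No other measured BMP or GDF ligand past the filter was 2-fold higher like Bmp4. Just 0.344% of all genes past the filter were, so none of 15 is near that share and is no trait of the ligands.

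None of the 11 receptors and co-receptors past the filter was 2-fold apart, and 6 lay above 0 with a median of 0.06. The co-receptors Rgmb at 0.47 and Eng (endoglin) at 0.45 and the type II receptor Acvr2b at 0.34 were the highest. The type I receptor Acvrl1 at -0.61, the hemojuvelin gene Hfe2 at -0.53 and the anti-Müllerian hormone receptor Amhr2 at -0.35 were the lowest. The remaining genes of this list were named after their values were seen. Bmpr1a was at 0.07, Acvr1 at 0.06, Bmpr2 at -0.19, Acvr2a at 0.31 and Tgfbr3 at -0.14, and Bmpr1b did not pass the filter. The 4 signal-transducing SMADs were within the spread of a single probe set, with Smad1 at -0.10, Smad5 at 0.09, Smad9 at -0.0033 and Smad4 at 0.08.

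Of 22 secreted modulators, 15 lay below 0 and 6 above 0, beside 52.3% and 46.9% of all genes past the filter. Their median was -0.06, and 1 of the 22 was at least 2-fold higher, with none 2-fold lower. The exception was Fst, follistatin, which binds activins and some BMPs, at 8.26 in the microchamber and 7.21 on the plate, which is 2.06-fold higher. Grem1, a BMP antagonist, at 0.19 and Kcp, an extracellular BMP enhancer, at 0.14 followed it. Twsg1, a chordin- and BMP-binding protein, was the lowest at -0.92, with 8.56 in the microchamber and 9.48 on the plate. Fstl3 at -0.87 and Fstl1 at -0.34, which are follistatin-like proteins, came next. Inside the cell, none of 17 SMAD modulators was 2-fold apart (median -0.07, or 0.02 with shared probe sets included, with 8 above 0). The kinase Hipk2 was at 0.51 and the SMAD corepressors Ski and Tgif1 were at 0.29 and 0.28, while the related corepressor Skil was at -0.85, the ubiquitin ligase Nedd4l at -0.37 and the deubiquitinase Usp15 at -0.24.

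Among E proteins and bHLH factors, 12 of 19 past the filter lay below 0, beside 52.3% of all genes past the filter. Their median was -0.05, and 1 was lower by 2-fold or more, with none higher by as much. That gene was Ascl2, a trophoblast bHLH factor, at 6.73 in the microchamber and 8.16 on the plate, which is 2.70-fold lower. Hey2 at -0.48 and Hand1 at -0.46, both bHLH factors of the developing heart, came next. The highest were the Notch effector Hes1 at 0.65, the blood factor Tal1 at 0.15 and the E protein Tcf12 at 0.13. The other E proteins, which are direct partners of ID proteins and are named after their values were seen, were at -0.31 for Tcf3 and -0.08 for Tcf4.

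Other BMP and SMAD1 targets had a median of -0.02, or 0.12 with a filter at the array median. Of 22, 9 lay above 0, beside 46.9% of all genes past the filter. None was 2-fold higher (0.344% of all genes) and 1 was at least 2-fold lower (0.443% of all genes). That gene was Dusp9, a MAP kinase phosphatase described as a BMP4 target in mouse embryonic stem cells, at 7.48 in the microchamber and 9.18 on the plate. Its difference of -1.71 is a 3.26-fold lower value, close in size and opposite in direction to that of Id4. Tbx3, a pluripotency-associated T-box factor, at 0.83, Prdm1, a germ cell regulator, at 0.71 and Hes1 at 0.65 were the highest. Dlx3 at -0.81 and Tfap2c at -0.62, transcription factors of ectoderm and trophoblast, followed Dusp9 at the lower end.

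**Figure D4:**
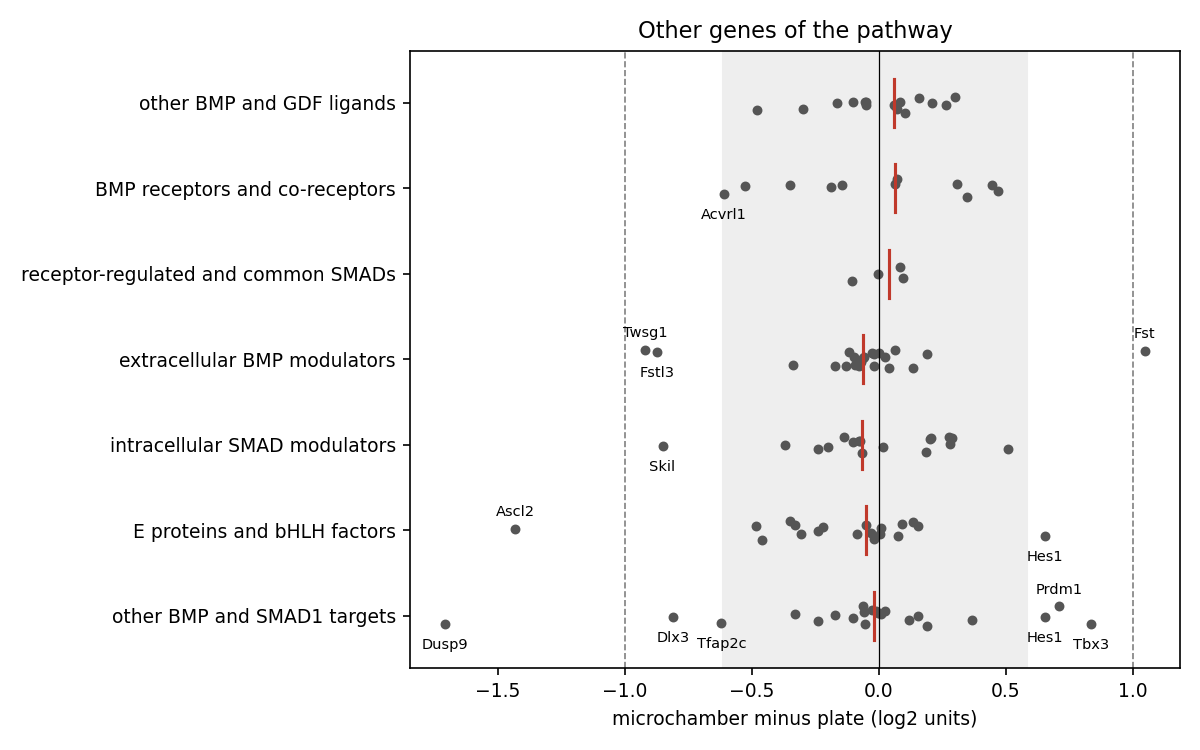
Microchamber minus plate difference (log2 units) of the genes past the filter in the 7 lists of other pathway genes, 1 point per gene, with the list median as a red bar, the middle 95% of all genes in grey and dashed lines at 2-fold; points are spread vertically for sight alone. All list medians lie between -0.07 and 0.06, and Fst (1.05), Ascl2 (-1.43) and Dusp9 (-1.71) are the 3 genes beyond 2-fold.

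The labelled cell type was checked on markers. The 5 pluripotency markers Pou5f1, Sox2, Nanog, Zfp42 and Esrrb ranged between 8.10 and 12.81 in the microchamber and between 7.74 and 12.58 on the plate, and all 5 were higher in the microchamber by 0.08 to 0.36. Neural markers, listed because Id4 is also a neural progenitor gene, went both ways, with Nes at -0.70, Tubb3 at 0.43 and Sox1, Pax6 and Olig2 between -0.03 and 0.08. Of these 5, Sox1, Pax6 and Olig2 were below the median of each array. Fibroblast markers were lower in 5 of 5 (-0.49 to -0.05), and primitive endoderm markers were higher in 3 of 5 (-0.17 to 0.45). Mesoderm markers were higher in 1 of 4 (-0.31 to 0.09) and trophectoderm markers in 1 of 4 (-0.63 to 0.01). Beside these counts, 46.9% of all genes past the filter lay above 0 and 52.3% below. Twist2 and Col1a2 (fibroblast), T and Mesp1 (mesoderm), and Cdx2 and Elf5 (trophectoderm) were also below the median of each array. The part of other cell types in the differences of Bmp4 and the ID factors was not tested.

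Genes whose values lay nearest to those of Id4 were sought over both arrays. Compared were 14826 other genes, without predicted and unnamed ones and without any symbol that begins with Rn, Olfr or Vmn. This start also drops named genes such as Rnf11. By Euclidean distance between pairs of log2 values, the nearest were Spic (distance 0.30), Chac1 (0.37), Cdo1 (0.39), Cdc14a (0.39) and Lefty2 (0.44). Their differences ran between 1.24 and 2.00, around the 1.70 of Id4. With 2 arrays this likeness reflects a pair of numbers per gene and no pattern over conditions.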

How the data were processed

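Total RNA was hybridised to Affymetrix Mouse Gene 2.0 ST arrays, 1 per culture. The authors background-corrected, summarised and normalized probe signals with RMA and deposited log2 values, per the series' design text; low raw signal was also filtered by percentile, per the same text. The submitters' processing notes name Expression Console 1.4.1 and Transcriptome Analysis Console 3.0, and the file headers name mm10. RMA gives both arrays one distribution, so a shift of most genes would not be seen. The deposited absolute fold is a ratio without direction, and the deposited log2 fold change is plate minus microchamber; both matched the values for all 33793 probe sets and were not used further.

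Differences were turned to microchamber minus plate. Probe sets with 1 symbol (24708) entered, and those of a gene were averaged; 2305 with several symbols, 6756 with none and 24 turned into dates did not. Genes passed when either array reached its 20th percentile over all probe sets that carry a symbol (5.17 microchamber, 5.16 plate). Level groups are 4 equal groups of genes by mean level. Members and lists were chosen with earlier results of these data known. Named were the 10 members, the 3 highest and 3 lowest of each list, all list genes at least 2-fold apart, and the 5 genes nearest to Id4. The search for those 5 left out predicted and unnamed genes, microRNAs, small nucleolar RNAs and pseudogenes. It also left out all symbols that begin with Rn, Olfr or Vmn. Outside this rule, Bambi-ps1, Bmpr1a, Acvr1, Bmpr2, Acvr2a, Tgfbr3, Bmpr1b, Tcf3, Tcf4 and single marker genes were named after their values were seen. Of the 23370 genes, 20206 had a symbol in RefSeq (GRCm38), which gave coordinates. Alternatives were a median filter, no filter, centring, loess (span 0.3, statsmodels 0.14.6), the brightest probe set, the authors' table, shared probe sets and a 1.5-fold threshold. The loess step and the 2-fold calls after it were run on simulated data. The planted differences lay well beyond the threshold, in noise narrower than the spread of the real differences. That setting is easier than the real data, and counts without the loess step were not run on it. Python 3.11.15 and pandas 2.3.3 were used.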

Additional observations from a re-analysis of the deposited data

How the results depend on the processing

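With 1 array per culture, precision is limited by the number of arrays, and no setting measures the spread between cultures. No paired analysis was possible because each culture had 1 array. Each member has 1 probe set and the authors' table holds the same values, so centring and loess alone could change a member's difference. The other settings repeat it by construction. The difference of Id4 ranged between 1.70 and 1.74 and that of Bmp4 between 1.20 and 1.23. Id4 minus the mean of Id1 to Id3, which centring cannot change, ranged between 1.76 and 1.77. These narrow ranges are therefore no measure of how firm the differences are. Bmp2 and Smad6 had no value with the filter at the median. No member difference at 2-fold reversed, which most of these settings could not have brought about. With that filter 4 of the other BMP and GDF ligands were left and their median was -0.18, against 0.06 without it; the median of the 8 members left was 0.22, against 0.04 for all 10, and that of the other BMP and SMAD1 targets was 0.12, against -0.02. With shared probe sets under their first symbol, the median of the SMAD modulators was 0.02, against -0.07. Removing the loess trend put the targets' median at 0.0024. The signs of the small medians of these 3 lists (ligands, targets and SMAD modulators) thus depend on the setting, while that of the 10 members stayed above 0 in the alternatives run. A 1.5-fold threshold, which by its construction admits more genes, gave 472 genes higher and 529 lower overall (2.46% and 2.76% of those tested). It gave 1 of the 10 members lower (Bmp7) and 3 higher. Of 11 receptors 1 was lower, of 22 secreted modulators 1 was higher and 2 lower, and of 17 SMAD modulators 1 was lower. Of 19 E proteins and bHLH factors 1 was higher and 1 lower, and of 22 other targets 3 were higher and 3 lower.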
